A study of Mus musculus with 6 samples.

Results

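Genes of endosomal and clathrin-dependent membrane sorting were followed in mouse fetal liver with and without the microRNA locus miR-144/451. The members were taken by symbol alone: every gene whose symbol starts with Vps, Chmp or Snx followed by a number, apart from Snx22, the subunits of the adaptor complexes AP-1 to AP-4, and the clathrin chains Clta, Cltb and Cltc. That gave 96 of the 34542 genes in the count table, of which 94 also had exon and intron counts. Fetal livers of strain C57BL/6J gave 3 polyA RNA libraries of genotype miR-144/451-/- (KO, replicates 4 to 6) and 3 of wild-type genotype (WT, replicates 1 to 3), with no treatment named. The labels give neither the embryonic age, nor how the deletion was made, nor whether a library came from 1 embryo or from several, so p-values measure only the spread between these samples.

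Membrane proteins taken in at the cell surface are collected by clathrin, a coat of heavy and light chains, through adaptor complexes that read sorting signals in the cargo. From early endosomes the cargo is either returned by retromer and sorting nexins, or packed by the ESCRT machinery into vesicles inside multivesicular bodies and carried to lysosomes, to which endosomes are joined by tethering complexes. In red cell precursors this route carries the transferrin receptor, which brings in iron for heme, and maturing reticulocytes shed the receptor in vesicles released from multivesicular bodies.

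The libraries held 40392139 to 44700229 gene counts in KO livers and 24659978 to 36082084 in WT livers. The deleted genes behaved as labelled, with 0 to 1 count of Mir144 and 2 to 4 of Mir451 per KO library, against 29 to 51 and 323 to 446 per WT library. Cell types of the tissue were uneven across libraries. Summed over 20 hepatocyte markers, the level was 14270 to 50330 CPM in KO livers and 9735 to 61730 CPM in WT livers, with KO replicate 6 and WT replicate 2 the highest of their groups (CPM are counts relative to each library's size, scaled by edgeR's TMM factors). The 12 erythroid markers found summed to 15150 to 17880 CPM in KO livers and 19720 to 27830 CPM in WT livers, so the groups did not overlap, and 2 of the 12 passed as lower. The 6 mast cell and basophil markers summed to 20.4 to 24.3 CPM in KO livers and 26.4 to 40.7 CPM in WT livers, also without overlap, and 0 of 5 tested passed. Macrophage, megakaryocyte, neutrophil and endothelial sums overlapped between the groups, with 0 markers past the threshold. No list had a marker at 0 in all libraries. The part of these cell types in the results that follow was not tested. In whole tissue, fewer cells of a type and less RNA per cell cannot be told apart.

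The microRNAs missing from the KO livers are shown because their seeds, bases 2 to 8 in capitals, set the sites searched for in the members (RefSeq, build GRCm38.p6, plus strand of chromosome 11).
mmu-miR-144-5p: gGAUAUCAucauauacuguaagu
mmu-miR-144-3p: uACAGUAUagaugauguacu
mmu-miR-451a: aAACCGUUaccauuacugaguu
Sites were matches to seed bases 2 to 8 in the longest annotated 3′ untranslated region (TGATATC for miR-144-5p, ATACTGT for miR-144-3p and AACGGTT for miR-451a, sense strand only, called 8mer where an A follows). Of the 92 tested members, 12 held a miR-144-3p site (13%, beside 13.1% of 13075 tested genes with such a region) and 0 held a miR-451a site (beside 2%). A miR-144-5p site was found in 4 of them, Ap3m1, Snx13, Vps13c and Vps8 (4.35%, beside 5.8%). Of 260 genes of the whole table that rose in KO livers and have such a region, 25.4% held a miR-144-3p site and 11.9% a miR-451a site. Ap3b2, the neuronal form of the AP-3 beta subunit, carried the miR-451a match found among all 96 members, and it was too low to test, with 0 to 3 counts per library. The members shown next are the 3 site carriers with the largest increases in KO livers, followed by Ap3b2, with the matched bases in capitals (GENCODE M21 transcripts, build GRCm38, each in the sense of its gene).
Vps4b, chromosome 1, minus strand, first site, base 729 of a 3017-base region: attgtcatgaaATACTGTAatgggaa
Vps4b, second site, base 1255: ggcttgaaataATACTGTtcctatgt
Vps36, chromosome 8, plus strand, base 224 of 2351: aaagtcatgctATACTGTgtagaact
Snx4, chromosome 16, plus strand, base 88 of 1791: tacatagaagcATACTGTAcatggaa
Ap3b2, chromosome 7, minus strand, base 901 of 1846: tcttggaggaaAACGGTTAcacaact

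In KO livers 5 members rose and 0 fell. Of the 96 members, 92 had enough counts to be tested. The rising members were 5 of the 92 (5.43%), where 1.83% of all 15105 tested genes rose, and the falling members were 0 of the 92, where 1.45% of all tested genes fell (edgeR's quasi-likelihood test, Benjamini-Hochberg adjusted p under 0.05). At an unadjusted p under 0.05, 16 members were higher (17.4%, against 7.77% of all tested genes) and 8 were lower (8.7%, against 8.78%). DESeq2 called 9 members higher (9.78%, against 4.34% of all genes) and 0 lower (against 4.32%). Every KO library lay above every WT library for 18.5% of tested members (11.8% of all tested genes), and below for 8.7% (10.9%). The median log2 change was 0.03 over members and -0.03 over all tested genes. The 5 rose by 1.38-fold to 1.76-fold, each in a different complex: Ap1g1 in AP-1, Vps53 in the Golgi tether, Vps39 in the lysosomal tether, Vps4b at the ESCRT machinery and Ap3b1 in AP-3. All 5 calls were lost without any 1 of WT replicates 1 and 3 and KO replicates 4, 5 and 6, with adjusted p between 0.0509 and 0.166 by edgeR, and all 5 held without WT replicate 2.

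**Figure D1:**
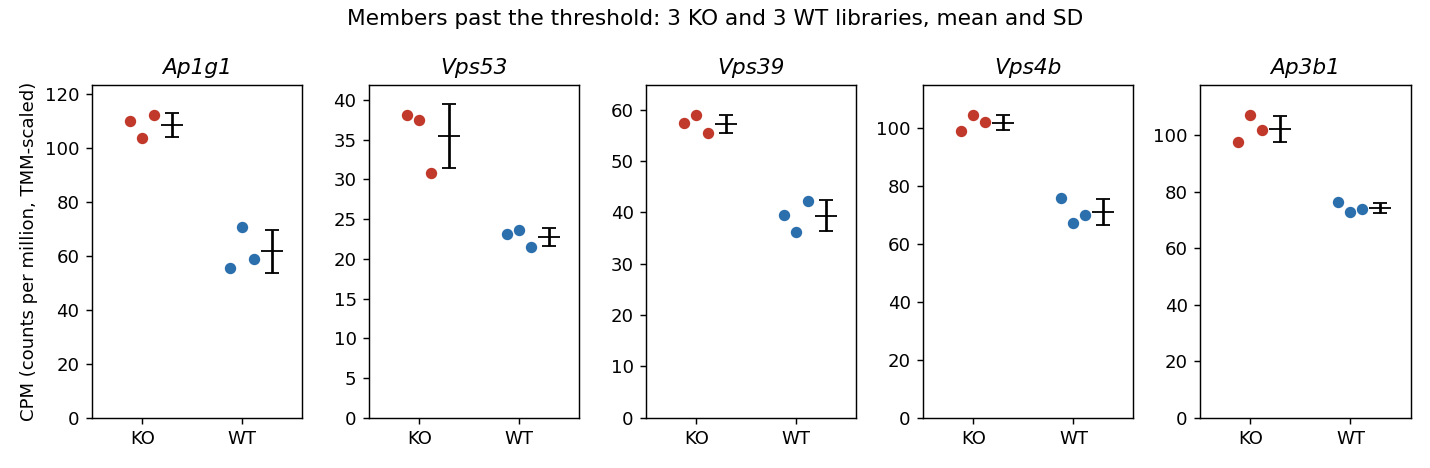
CPM of the 5 members past the threshold in each of 3 KO libraries (red, left) and 3 WT libraries (blue, right), with the mean and SD beside the points. In each panel the KO points lie above the WT points, most widely for Ap1g1 (104 to 112 CPM in KO, 55.5 to 70.6 CPM in WT).

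Ap1g1 encodes gamma-1 adaptin, a large subunit of AP-1, the adaptor that sorts cargo between the trans-Golgi network and endosomes. Its level was 110, 104 and 112 CPM in KO replicates 4 to 6, against 55.5, 70.6 and 59.0 CPM in WT replicates 1 to 3. The means were 109 ± 4.45 CPM in KO livers and 61.7 ± 7.94 CPM in WT livers (SD, n = 3 each), for a KO over WT log2 change of 0.82 (SE 0.10, adjusted p = 0.0185, edgeR). In the GRCm38 annotation the gene lies on chromosome 8 at 109778554 to 109864204 on the plus strand, and the antisense gene Gm17344 shares exonic positions with it. No other AP-1 subunit passed. Ap1s1, a small subunit, was at 80.4, 79.3 and 70.7 CPM in KO and 67.3, 62.9 and 69.9 CPM in WT livers (log2 change 0.20, adjusted p = 0.285, edgeR). Its relative Ap1s2 was at 9.90, 10.3 and 10.2 CPM in KO and 13.9, 14.6 and 11.1 CPM in WT livers (-0.38, adjusted p = 0.248, edgeR). Neither small subunit overlapped between the groups, Ap1s1 being higher and Ap1s2 lower in each KO library. Of all tested genes, 11.8% were higher and 10.9% lower in this way. Ap1b1, the large beta subunit and the most abundant of AP-1 per length, was at 357, 346 and 317 CPM in KO and 341, 282 and 330 CPM in WT livers (0.10, adjusted p = 0.789, edgeR). The remaining tested subunits Ap1m1, Ap1g2 and Ap1s3 had log2 changes of 0.13, 0.15 and -0.09. Ap1g2 encodes gamma-2 adaptin, which is the closest relative of Ap1g1, and it shares exonic positions with Thtpa. Ap1m2, the epithelial medium subunit, stayed too low to test.

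Intron counts, which can hold unspliced RNA, kept introns and any transcript nested in them, had the opposite sign for Ap1g1. They were 154, 193 and 191 CPM in KO livers and 233, 309 and 362 CPM in WT livers, with every KO library below every WT library (means 179 ± 22.4 and 301 ± 64.7 CPM, SD, n = 3 each). How often introns of all genes do so was not counted. Introns held 21.3%, 17% and 18% of exon and intron counts in KO replicates 4 to 6 and 16.9%, 19.1% and 23.4% in WT replicates 1 to 3. WT replicate 3 was the highest for this share and for Ap1g1 introns, and the part of the share in these levels was not tested. The intronic log2 change was -0.75 (SE 0.18, unadjusted p = 0.00376, adjusted p = 0.159, edgeR). The interaction test put the exonic change 1.56 above it (SE 0.21, edgeR, adjusted p = 0.223, unadjusted p = 9.4e-05). Only 2 of 11100 genes had a smaller p in that test, and 16 had a larger difference in the same direction. The difference was between 1.42 and 1.67 in 10 alternative fits and passed in 3 of them: by DESeq2 (adjusted p = 1.2e-07), by edgeR without a term per sample (adjusted p = 0.0451) and by edgeR without WT replicate 3 (adjusted p = 0.0129). Those 3 fits called 0.34%, 0.0811% and 0.391% of all genes in that direction. The lower intron counts passed by DESeq2 (adjusted p = 0.00558). The introns of Ap1g1 hold the small nucleolar RNA gene Snord71, and whether it adds to these counts was not tested.

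Of the 5 members that rose, 4 had intronic log2 changes above 0 and Ap1g1 was the exception. The median intronic log2 change was itself above 0, at 0.11 over members and 0.02 over all tested genes. Across the 90 members tested for introns, 0 were higher and 0 lower by edgeR at the adjusted threshold, beside 0.237% and 0.483% of all 11803 genes. At an unadjusted p under 0.05, 11 were higher (12.2%, against 5.39% of all genes) and 1, Ap1g1, was lower (1.11%, against 5.45%). Of the 87 members to which DESeq2 gave an adjusted p, it called 2 higher, Snx19 and Vps13c (2.3%, against 1.26% of all genes), and 1 lower (1.15%, against 2.23%), shares near those of all genes. Snx19 introns were at 104, 111 and 101 CPM in KO and 69.9, 62.2 and 64.7 CPM in WT livers (log2 change 0.68, adjusted p = 0.0640, edgeR). Vps13c introns were at 130, 136 and 119 CPM in KO and 78.3, 90.4 and 82.2 CPM in WT livers (0.62, adjusted p = 0.0852, edgeR). In introns of both genes the KO libraries all lay above the WT libraries, a pattern that was not counted over the introns of all genes. In gene counts 11.8% of all tested genes had it. The exonic against intronic test called 0 of 90 members in either direction, as it did 0% of all 11100 genes. At an unadjusted p under 0.05 it gave 2 members with the exonic change higher, Ap1g1 and Vps37b (beside 1.67% of all genes), and 2 with it lower, Ap3s2 and Snx19 (beside 1.5%).

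**Figure D2:**
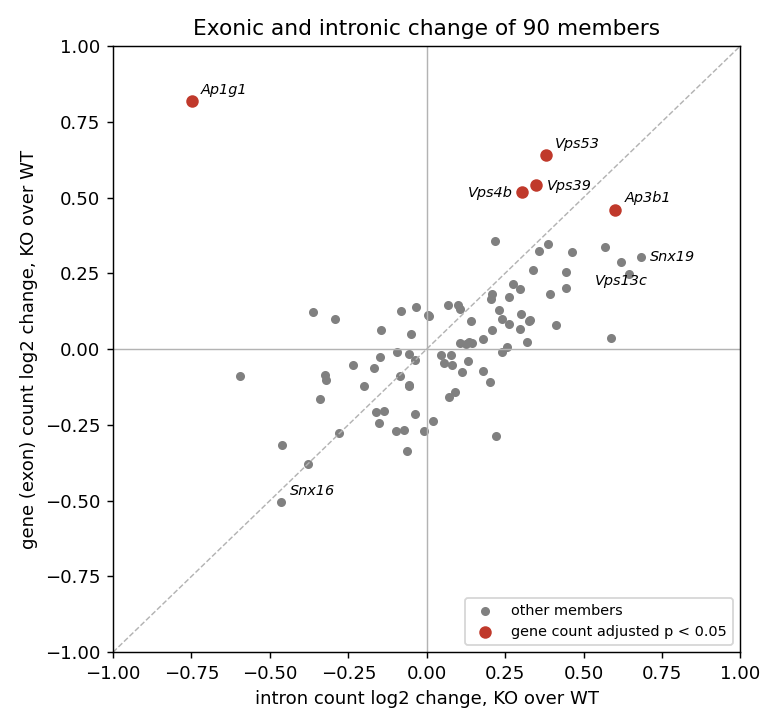
Gene count log2 change (vertical, KO over WT) against intron count log2 change (horizontal) of 90 members, with the 5 called members in red and a dashed line of equality. Ap1g1 sits alone at the upper left (0.82 and -0.75), while Ap3b1, Vps39, Vps4b and Vps53 have both changes above 0.

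Of the 11 tested members of tethers, which join vesicles to their target membrane, 2 rose (18.2%, beside 1.83% of all tested genes). The 11 pool groups described below, 8 genes grouped here as CORVET and HOPS and 3 as GARP and EARP, with 1 riser in each. Vps33b was counted in the first group, and whether it is a subunit of either tether was not examined. The difference from all genes was not tested. Tgfbrap1 and Ccdc132, tether genes listed with the other pathway genes, are outside the 11. Neither passed (log2 changes 0.07 and 0.03, adjusted p = 0.852 and 0.993, edgeR). Vps53 is a subunit of both GARP, which receives endosomal vesicles at the trans-Golgi network, and EARP, which acts in endosomal recycling. It was at 38.1, 37.5 and 30.8 CPM in KO livers and 23.2, 23.6 and 21.5 CPM in WT livers. The means were 35.5 ± 4.04 and 22.8 ± 1.12 CPM (SD, n = 3 each; log2 change 0.64, SE 0.11, adjusted p = 0.0382, edgeR). KO replicate 6 was the lowest of its group and still above every WT library. The gene lies on chromosome 11 at 76046226 to 76179647 on the minus strand, where exons of Glod4 on the same strand overlap it, so its counts are uncertain as those of a single gene. Vps54, which occurs in GARP and not in EARP, was at 79.8, 87.5 and 83.9 CPM in KO and 67.1, 63.5 and 67.2 CPM in WT livers (0.35, SE 0.07, adjusted p = 0.0533, edgeR). Vps54 passed with the other size factors, by DESeq2, with the hepatocyte level as covariate, without WT replicate 2, and without both WT replicate 2 and KO replicate 6. Vps52, shared by both tethers, was at 88.5, 78.9 and 71.3 CPM in KO and 77.1, 64.2 and 75.5 CPM in WT livers (0.14, adjusted p = 0.656, edgeR). Rps18 on the opposite strand shares exonic positions with Vps52.

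Vps39 belongs to HOPS, the tether that joins late endosomes to lysosomes, where it binds the GTPase Rab7. Its level was 57.4, 58.9 and 55.5 CPM in KO livers and 39.5, 36.2 and 42.2 CPM in WT livers. The means were 57.3 ± 1.73 and 39.3 ± 3.01 CPM (SD, n = 3 each; log2 change 0.54, SE 0.08, adjusted p = 0.0284, edgeR), a gap several times the SD of either group. The annotation puts Vps39 on chromosome 2 at 120316461 to 120353137, minus strand, with no overlapping gene. Vps41 and Vps8, which also mark a single tether, were higher in every KO library than in any WT library, as were 11.8% of all tested genes. Neither passed. Vps41, the second HOPS-specific subunit, was at 68.5, 72.9 and 71.0 CPM in KO and 63.7, 52.5 and 62.0 CPM in WT livers (0.25, adjusted p = 0.241, edgeR). Vps8, which is specific to the early endosomal tether CORVET, was at 29.0, 28.5 and 26.3 CPM in KO and 22.3, 20.6 and 24.2 CPM in WT livers (0.32, adjusted p = 0.178, edgeR). Tgfbrap1, also specific to CORVET, overlapped between the groups, at 35.3, 31.7 and 32.4 CPM in KO and 31.2, 30.3 and 33.5 CPM in WT livers. Vps16, a core subunit of both tethers, was at 86.0, 78.6 and 75.4 CPM in KO and 76.9, 63.3 and 82.3 CPM in WT livers (0.11, adjusted p = 0.774, edgeR). The other shared core subunits Vps11, Vps18 and Vps33a had log2 changes of -0.02, -0.12 and 0.09, and all 4 overlapped between the groups. Vps33b had 0.18 (adjusted p = 0.558, edgeR).

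Vps4b encodes an AAA ATPase that takes ESCRT-III filaments apart after membrane scission. Its level was 99.2, 105 and 102 CPM in KO livers and 76.1, 67.2 and 70.1 CPM in WT livers. The means were 102 ± 2.66 and 71.2 ± 4.52 CPM (SD, n = 3 each; log2 change 0.52, SE 0.07, adjusted p = 0.0228, edgeR), and no KO library came near the WT range. It lies on chromosome 1 at 106764071 to 106796728, minus strand, with no overlapping gene, and its transcript carries both miR-144-3p matches printed above. Its paralogue Vps4a, with 0 such sites, was at 47.6 to 53.5 CPM in KO and 42.8 to 51.8 CPM in WT livers (0.09, adjusted p = 0.775, edgeR). The intronic change of Vps4b was 0.31 and its exonic change exceeded that by 0.21 (SE 0.20, unadjusted p = 0.325, edgeR). Among the 12 tested site carriers, 7 log2 changes were above 0 and 5 below, from -0.24 for Snx29 to 0.52 for Vps4b, and Vps4b was the 1 past the threshold. Their median was 0.04, beside 0.03 for tested members without a site, and the medians over all tested genes were 0.01 with a site and -0.03 without.

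The ESCRT subunits that build vesicles inside endosomes moved less. Vps28, an ESCRT-I core subunit, was at 42.5, 42.8 and 44.1 CPM in KO and 34.0, 36.5 and 31.0 CPM in WT livers (log2 change 0.35, adjusted p = 0.100, edgeR), and Tonsl shares exonic positions with it. Vps36, the ubiquitin-binding subunit of ESCRT-II, was at 37.9, 40.4 and 36.6 CPM in KO and 31.3, 29.3 and 30.4 CPM in WT livers (0.34, adjusted p = 0.0907, edgeR). Both had every KO library above every WT library, as did 11.8% of all tested genes. DESeq2 called both, as it called 4.34% of all genes higher. Chmp7, which recruits ESCRT-III to the nuclear envelope, had a log2 change of 0.25 (adjusted p = 0.255, edgeR). Chmp3, a core filament subunit, lay on the other side of 0, at 81.4, 87.2 and 82.3 CPM in KO and 117, 92.1 and 108 CPM in WT livers (-0.34, adjusted p = 0.156, edgeR). Chmp3 passed as lower without WT replicate 2, a fit that called 7 members higher (7.61%, against 3.16% of all genes) and 4 lower (4.35%, against 6.61%). Chmp2a, another filament subunit, was at 83.5, 90.4 and 85.5 CPM in KO and 107, 88.4 and 94.2 CPM in WT livers (-0.16, adjusted p = 0.467, edgeR). Across the 12 genes of ESCRT-III and Vps4, 1 rose, 0 fell and 11 did not pass. Of the 6 tested ESCRT-I and ESCRT-II genes 0 passed, where 1.83% of all tested genes rose and 1.45% fell. The log2 change was above 0 for 5 of these 6, the scarce Vps25 among them, beside 44.8% of all tested genes. These differences from all genes were not tested. Vps25 of ESCRT-II had 9 to 26 gene counts per library beside 263 to 569 intron counts, and the annotation gives it exonic positions in common with Ramp2.

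Ap3b1 encodes the beta-3A subunit of AP-3, the adaptor that directs cargo to lysosomes and lysosome-related organelles such as platelet dense granules. It was at 97.8, 107 and 102 CPM in KO livers and 76.4, 72.7 and 73.9 CPM in WT livers. The means were 102 ± 4.74 and 74.3 ± 1.89 CPM (SD, n = 3 each; log2 change 0.46, SE 0.07, adjusted p = 0.0255, edgeR). The gap between the groups was wider than the range within either. The gene lies on chromosome 13 at 94358960 to 94566317, plus strand. Ap3b1 introns were at 86.1, 86.5 and 70.2 CPM in KO and 54.7, 60.0 and 45.4 CPM in WT livers (0.60, unadjusted p = 0.00588, adjusted p = 0.198, edgeR), a change close in size to that of the gene count. Ap3m1, the medium subunit, was at 82.9, 88.7 and 81.9 CPM in KO and 77.1, 71.2 and 75.4 CPM in WT livers (0.18, adjusted p = 0.261, edgeR). The small subunit Ap3s1 was at 42.5, 50.6 and 44.8 CPM in KO and 55.4, 48.7 and 54.8 CPM in WT livers (-0.20, adjusted p = 0.372, edgeR). Log2 changes were 0.13 for Ap3d1, 0.04 for Ap3s2 and -0.24 for Ap3m2. Ap3s1 has processed copies listed as Ap3s1-ps1 and Ap3s1-ps2 with 46 to 192 counts per library beside its own 1319 to 2120, so its reads may be split.

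Among the AP-2 subunits and the clathrin chains no change passed the threshold, where 1.83% of all tested genes rose and 1.45% fell. So few genes cannot be told from those shares. Of the 5 AP-2 subunits, which load cargo such as the transferrin receptor into clathrin-coated pits, 0 passed and log2 changes ran from -0.21 to 0.17. The lowest was Ap2m1, the subunit that binds tyrosine-based signals, at 254, 269 and 264 CPM in KO and 326, 285 and 301 CPM in WT livers (adjusted p = 0.274, edgeR). Every KO library was below every WT library for Ap2m1, as for 10.9% of all tested genes. The small subunit Ap2s1 was at 116, 119 and 103 CPM in KO and 113, 98.3 and 108 CPM in WT livers (0.08, adjusted p = 0.788, edgeR). All 3 clathrin chains had log2 changes below 0 (beside 55.2% of all tested genes) and 0 passed. The heavy chain Cltc was at 864, 891 and 872 CPM in KO and 961, 830 and 919 CPM in WT livers (-0.04, adjusted p = 0.949, edgeR), and it was slightly above 0 in 1 of 12 alternative fits. The light chain Cltb was at 59.6, 57.7 and 54.6 CPM in KO and 73.5, 59.8 and 75.2 CPM in WT livers (-0.28, adjusted p = 0.255, edgeR), while Clta had -0.04. Cltb passed as lower without WT replicate 2 (edgeR adjusted p = 0.0246), the lowest WT library for it. AP-4, a scarcer adaptor of the trans-Golgi network, had log2 changes from -0.12 to 0.02 and 0 of 4 subunits past the threshold. Its beta subunit Ap4b1 was at 50.6, 54.7 and 49.0 CPM in KO and 57.4, 47.7 and 58.8 CPM in WT livers.

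Retromer and the sorting nexins, which retrieve cargo from endosomes, had 0 of 32 tested genes past the threshold. Of all tested genes 1.83% rose and 1.45% fell, and 0 of 32 cannot be told from those shares. Retromer's cargo-binding core was uneven, with Vps35 at 232, 245 and 230 CPM in KO and 316, 238 and 296 CPM in WT livers (-0.27, adjusted p = 0.335, edgeR) and Vps26a at 76.8, 78.2 and 81.7 CPM in KO and 96.4, 82.9 and 94.2 CPM in WT livers (-0.21, adjusted p = 0.266, edgeR). WT replicate 2 was the lowest WT library for both, and both passed as lower without it. Vps26b had 0.13 and Vps29 0.02. Of 28 tested sorting nexins 9 had a log2 change above 0 and 19 below (67.9%, beside 55.2% of all tested genes), with a median of -0.05 (beside -0.03). Snx3, a retromer partner that in mouse and zebrafish erythroid cells takes part in recycling the transferrin receptor, was at 201, 206 and 179 CPM in KO and 219, 181 and 193 CPM in WT livers (-0.02, adjusted p = 0.993, edgeR). Snx4, a nexin linked to transferrin receptor recycling in human cells, was at 41.5, 46.3 and 49.0 CPM in KO and 36.4, 40.1 and 32.9 CPM in WT livers (0.32, adjusted p = 0.204, edgeR). Its transcript holds the 8mer match printed above.

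The most negative log2 change among nexins was that of Snx16, an endosomal nexin, at 5.73, 4.75 and 5.16 CPM in KO and 7.94, 6.22 and 8.06 CPM in WT livers (-0.51, SE 0.17, adjusted p = 0.197, edgeR). Snx16 and Chmp4c overlap on opposite strands. Snx15 was at 65.9, 67.3 and 63.3 CPM in KO and 85.8, 76.0 and 75.2 CPM in WT livers (-0.27, adjusted p = 0.143, edgeR), and Snx11 at 25.1, 22.3 and 23.0 CPM in KO and 27.9, 26.7 and 30.2 CPM in WT livers (-0.27, adjusted p = 0.234, edgeR). For these 3 of the 28 tested nexins no KO library reached the WT range (10.7%, beside 10.9% of all tested genes). Snx21 had a log2 change of 0.36 and was at 3.71, 5.89 and 7.90 CPM in KO and 5.06, 6.05 and 2.49 CPM in WT livers, with overlap (adjusted p = 0.800, edgeR). Its change was 0.07 without WT replicate 3 and 0.06 without KO replicate 6. Snx19, which sits at contacts between endosomes and the endoplasmic reticulum, had a gene log2 change of 0.30 (adjusted p = 0.174, edgeR) beside its intronic 0.68.

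Vps13 proteins move lipids between membranes at contact sites, and loss of human VPS13A gives misshapen red cells. Vps13c was at 192, 179 and 195 CPM in KO and 155, 139 and 171 CPM in WT livers (log2 change 0.29, adjusted p = 0.202, edgeR). DESeq2 called it higher, as it did 4.34% of all genes. Vps13a, Vps13b and Vps13d had 0.11, -0.16 and 0.06 with 0 past the threshold. Vps45, which regulates endosomal membrane fusion, had 0.02. Vps72 shares the symbol but encodes a chaperone of the histone variant H2A.Z, and it was at 42.4, 42.2 and 34.1 CPM in KO and 33.9, 29.8 and 35.3 CPM in WT livers (0.26, adjusted p = 0.355, edgeR).

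**Figure D3:**
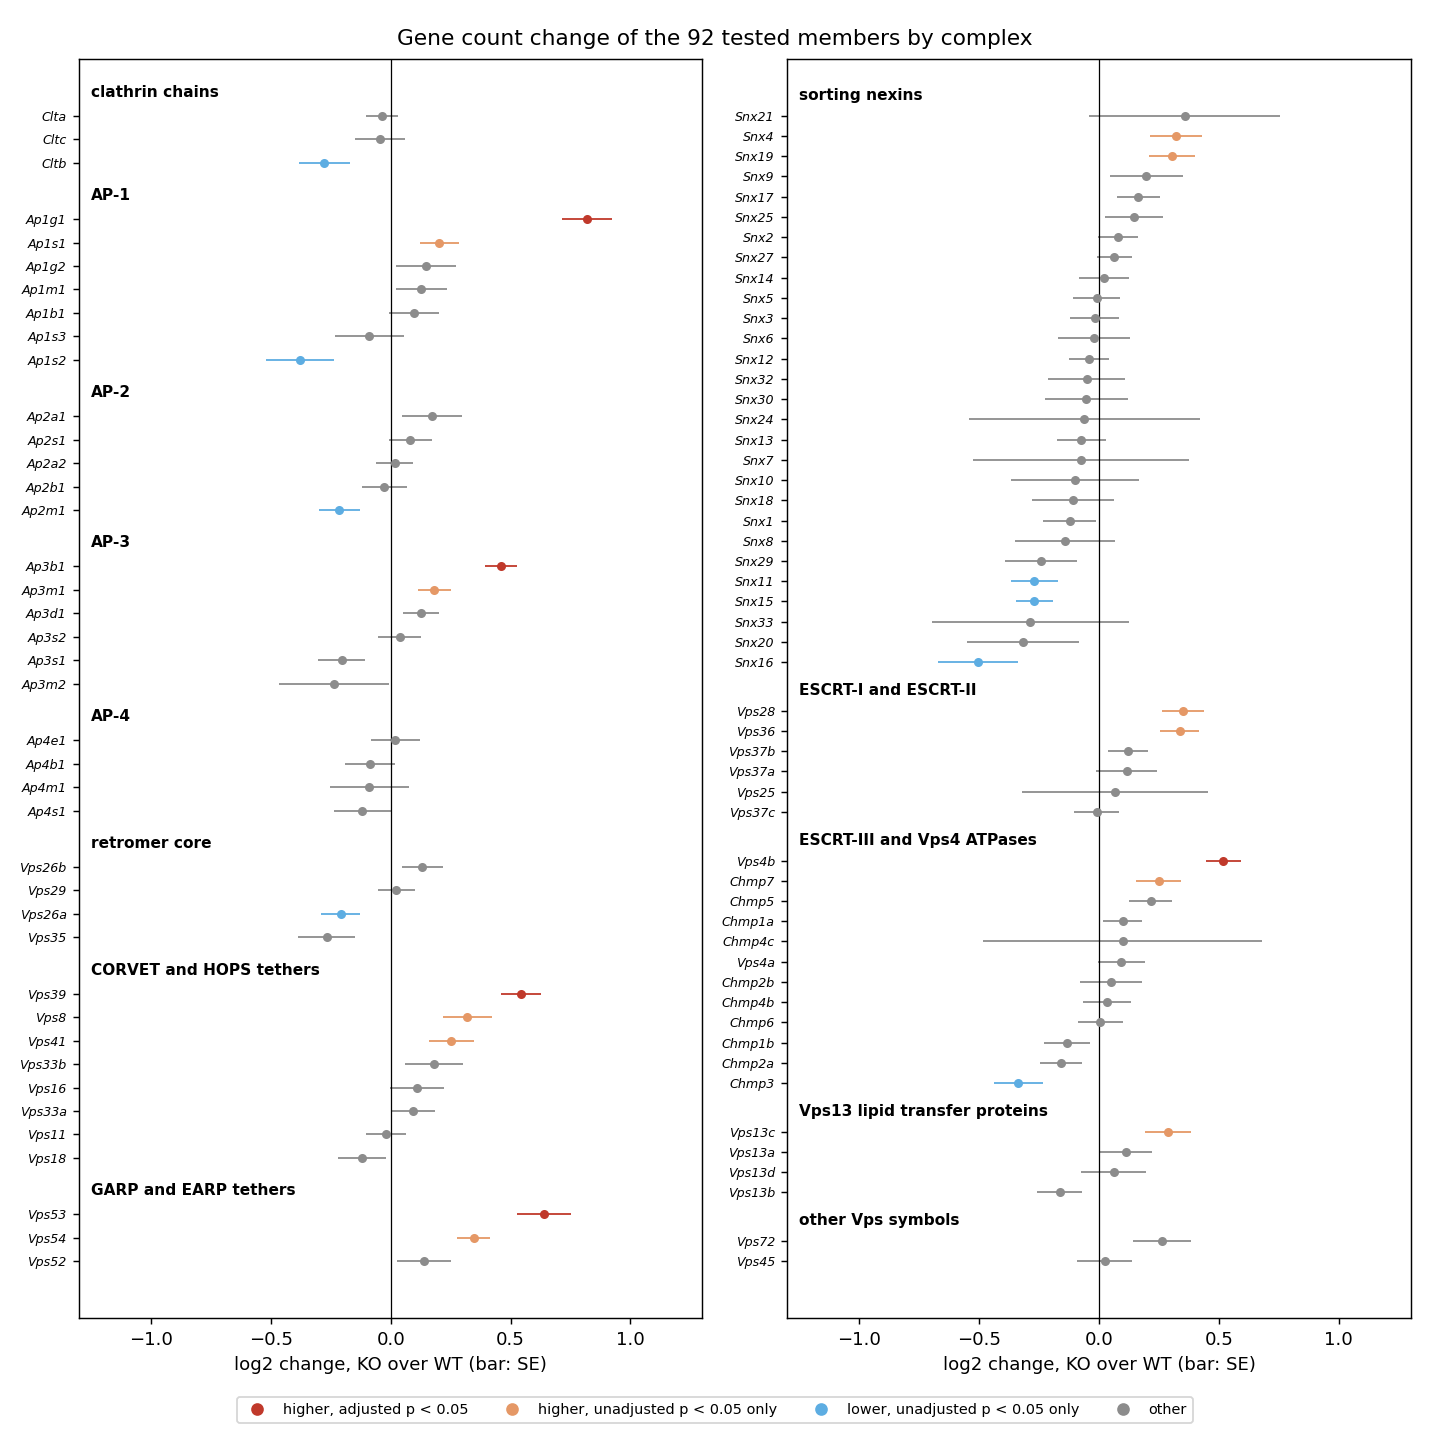
Log2 change of gene counts, KO over WT, with its SE for the 92 tested members, grouped by complex and sorted within each. Red marks the 5 members past the adjusted threshold, orange and blue those with an unadjusted p under 0.05 only, and grey the rest. Of the sorting nexins, 19 of 28 lie below 0, beside 55.2% of all tested genes.

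Levels per length of annotated exon separate abundant from scarce parts of the machinery. Snx3 was the most abundant member, at 138 CPM per kb in KO and 140 CPM per kb in WT livers. Next came Cltc, with 103 and 106 CPM per kb in KO and WT livers. Within AP-1, Ap1g1 was at 14.2 CPM per kb in KO and 8.03 in WT livers, beside 68.5 in KO and 64.1 in WT livers for Ap1b1. The other gamma subunit Ap1g2 was at 10.4 in KO and 9.37 in WT livers, so Ap1g1 was above it in KO and below it in WT livers, an order that was not tested. By the mean of both groups, the most abundant subunit was Ap2s1 in AP-2 (76.5 CPM per kb in KO and 72.3 in WT), Ap3s1 in AP-3, Ap4b1 in AP-4, Vps26a in retromer, Vps16 in HOPS and CORVET, Vps52 in GARP, Vps28 in ESCRT-I and ESCRT-II, and Chmp2a in ESCRT-III (74.4 and 83.1). Neighbours within AP-2 lay close: Ap2m1 had 63.6 CPM per kb in KO and 73.8 in WT livers, so it was below Ap2s1 in KO and above it in WT livers. In AP-3 the order differed too, with Ap3b1 at 22.5 CPM per kb in KO and 16.4 in WT livers and Ap3s1 at 19.2 in KO and 22.1 in WT livers. These orders were not tested. Lengths are those of all annotated exons joined, so genes with rarely used long exons read low on this scale.

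**Figure D4:**
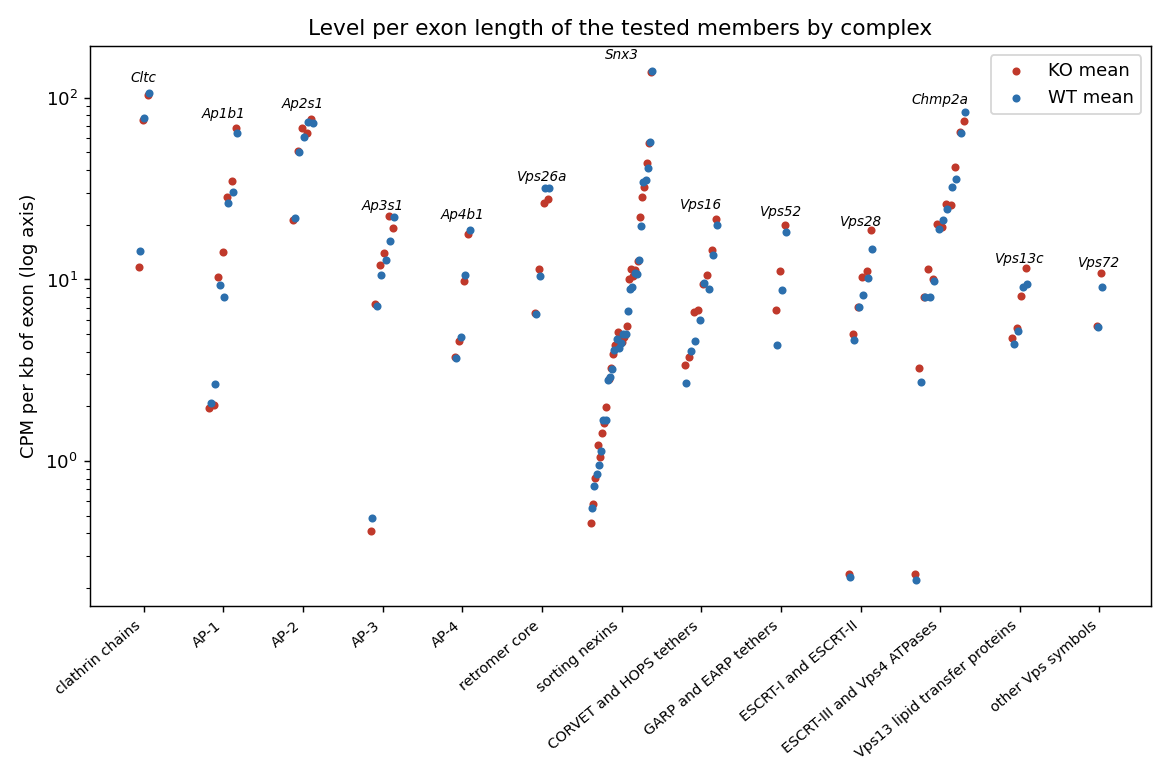
Mean CPM per kb of exon (log axis) of the 92 tested members by complex, KO means in red and WT means in blue, with the most abundant member named. KO and WT means lie close together for most members, and Snx3 and Cltc are at the top. AP-4, the Vps13 genes, ESCRT-I and ESCRT-II, and the other Vps symbols hold no member above 20 CPM per kb.

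Of the 92 tested members, 21 were highest of their group in both libraries with most hepatocyte marker RNA (22.8%, beside 29.1% of all tested genes) and 36 were lowest there (39.1%, beside 32.2%). The 21 include Ap1g1, by a margin of 1.02 times in KO livers (112 CPM in KO replicate 6, 70.6 CPM in WT replicate 2). The mean log2 level of 20 hepatocyte markers was 7.80, 8.47 and 9.57 in KO replicates 4 to 6 and 7.98, 9.93 and 7.22 in WT replicates 1 to 3. By a rule chosen after the values were seen, 4 of 92 members (4.35%, beside 11.2% of all tested genes) were more than 1.5 times higher in KO replicate 6 and in WT replicate 2 than in the other libraries of the same group. Snx7 was at 3.79, 4.29 and 6.83 CPM in KO and 3.89, 8.81 and 2.95 CPM in WT livers. Chmp4c was at 1.34, 1.86 and 3.997 CPM in KO and 1.53, 3.94 and 1.20 CPM in WT livers. Snx24 and Snx33 did likewise, reaching 5.67 and 3.00 CPM in KO replicate 6 and 7.10 and 3.88 CPM in WT replicate 2. Their log2 changes between genotypes were -0.08 for Snx7, 0.10 for Chmp4c, -0.06 for Snx24 and -0.29 for Snx33, each smaller than its SE of 0.41 to 0.58. With the hepatocyte level as a covariate in the same edgeR test, 15 members were higher, the 5 among them (16.3%, against 8.51% of all genes). The 6 lower were Ap1s2, Chmp3, Cltb, Snx11, Snx15 and Snx16 (6.52%, against 8.55%, so the share was under that of all genes). Without KO replicate 6 and WT replicate 2 8 members were higher, all 5 again included (8.7%, against 3.85% of all genes), and 4 lower (4.35%, against 5.56%). The part of hepatocyte content in the results for other members was not tested.

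**Figure D5:**
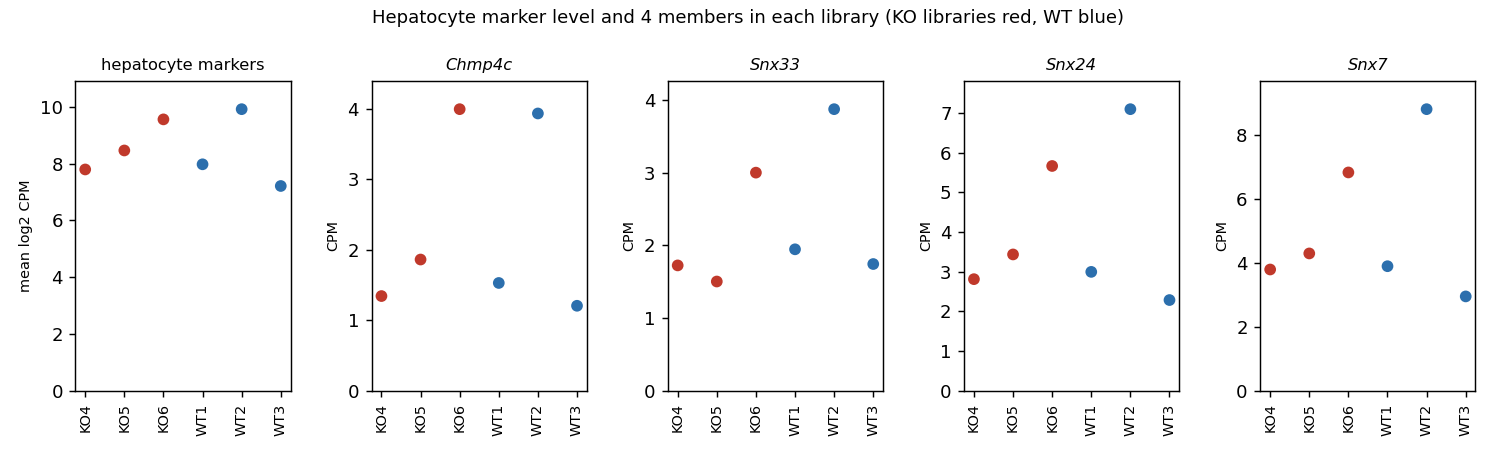
Mean log2 CPM of 20 hepatocyte markers (first panel) and CPM of Chmp4c, Snx33, Snx24 and Snx7 in each library, KO in red and WT in blue. KO replicate 6 and WT replicate 2 are the highest points of their group in every panel.

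Other genes of the endosomal and clathrin pathway gave 71 tested genes, of which 3 rose (4.23%, beside 1.83% of all tested genes) and 1 fell (1.41%, beside 1.45%), with 67 not past the threshold and a median log2 change of 0.03. The 3 that rose were Synrg, Clint1 and Arf1. Synrg, gamma-synergin, which binds the gamma-adaptin ear, was at 109, 112 and 101 CPM in KO and 68.1, 58.5 and 62.4 CPM in WT livers (log2 change 0.77, SE 0.09, adjusted p = 0.0142, edgeR). Clint1, the epsin-related protein that links AP-1 to clathrin, was at 341, 381 and 343 CPM in KO and 266, 267 and 249 CPM in WT livers (0.45, SE 0.09, adjusted p = 0.0481, edgeR). Arf1, a GTPase that recruits several coats, AP-1 among them, to membranes, was at 323, 342 and 334 CPM in KO and 253, 254 and 245 CPM in WT livers (0.41, SE 0.07, adjusted p = 0.0398, edgeR). In all 3 genes the KO libraries lay above the WT libraries, as in 19.7% of the 71 and 11.8% of all tested genes. The 3 were picked from the same counts, so this adds no support to their calls. Ap1ar and Aftph, also partners of AP-1 on the list, did not pass, with log2 changes of -0.19 and -0.05 (adjusted p = 0.362 and 0.959, edgeR). Gga1, Gga2 and Gga3 on the same list were at 0.34, 0.30 and 0.02 and did not pass either (adjusted p = 0.0873, 0.102 and 0.996, edgeR). The gene that fell was Tfrc, the transferrin receptor, at 2208, 2301 and 2127 CPM in KO and 4141, 3559 and 4105 CPM in WT livers (-0.83, SE 0.14, adjusted p = 0.0336, edgeR), beside the lower summed erythroid markers given above. Each of these 4 calls ended without WT replicate 1, WT replicate 3, KO replicate 4 or KO replicate 5, and all but that of Synrg without KO replicate 6, with edgeR adjusted p from 0.0620 to 0.221. Without a filter on low counts Clint1, Arf1 and Tfrc missed the threshold (0.0595, 0.0573 and 0.0599), and with RLE size factors so did Clint1 (0.0508).

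The members together took 0.767%, 0.753% and 0.721% of the gene counts of KO replicates 4 to 6 and 0.690%, 0.659% and 0.703% of those of WT replicates 1 to 3. The groups did not overlap (means 0.747% ± 0.0233 and 0.684% ± 0.0226, SD, n = 3 each, exact two-sided permutation p = 0.1, the smallest this design allows). After TMM scaling the summed level was 7301, 7368 and 7057 CPM in KO and 7460, 6549 and 7200 CPM in WT livers, and the groups overlapped.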

How the data were processed

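The authors deposited raw counts per gene symbol, and exon and intron counts for part of the genes. Per the submitters' processing notes STAR and HTSeq were used, and the builds NCBIM37 and mm10 are listed; no version, strand setting or intron definition was found in the labels. Going by the table's name, globin and mitochondrial genes were taken out of the gene table. Exon counts equalled gene counts for all 15543 genes listed.

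KO was compared with WT in edgeR 4.0.16 (R 4.3.3) by the quasi-likelihood F test on TMM-scaled counts, filterByExpr (minimum count 10, minimum total 15), with adjustment over all tested genes. Exonic and intronic changes were compared as an interaction over 12 columns with a term per sample. SEs come from the F statistic. The test scripts were tested on simulated data with a single dispersion and changes larger than the increases called in members. That does not show how well changes of the size called here are recovered. DESeq2 1.42.0 and limma-voom (limma 3.58.1) were alternatives.

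Members with an adjusted or unadjusted p under 0.05, the 6 largest changes each way at a mean of 5 CPM or more, and the most abundant member per complex were named. Members and lists were chosen with earlier results of these data known. All 96 symbols matched GENCODE M21, and coordinates are of its build, GRCm38, only, since the tables' own build was not settled. Exons of another gene overlap 35 of the 96 members there, among them Vps16, Vps35, Vps52, Ap3m1 and Ap4b1. The counts of such members are uncertain as those of single genes, since no strand setting was found. KO and WT libraries carry different replicate numbers, so none pairs them. Reads carry no molecular identifiers.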

Additional observations from a re-analysis of the deposited data

How the results depend on the processing

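The 5 increases stayed past the threshold with RLE size factors (6 members higher), without a filter on low counts (5) and by limma-voom (5), and 0 members fell in these fits. DESeq2 gave 9 higher (655 higher and 652 lower in the whole table), the hepatocyte covariate 15 higher and 6 lower (1285 and 1291), and leaving out both WT replicate 2 and KO replicate 6 gave 8 higher and 4 lower (580 and 838), against 276 and 219 in the whole table as reported. Leaving out 1 library gave 0 to 7 higher and 0 to 4 lower, the upper ends without WT replicate 2, when 483 genes of the whole table were higher and 1012 lower. The other 5 fits that leave out 1 library called 5 to 54 genes higher and 7 to 44 lower. In introns DESeq2 gave 2 higher and 1 lower (123 and 217 in the whole table), and other fits 0. For the exonic against intronic difference DESeq2 gave 1, edgeR without a term per sample 1, and leaving out 1 library 0 to 1, each time Ap1g1. In the whole table that difference was called higher for 44 genes and lower for 106 without WT replicate 3, against 0 and 0 with all libraries. The cause of these differences was not tested. The median log2 change of members stayed between 0.02 and 0.07. Over the alternatives of single named genes, 561 values kept sign and side of the threshold, 48 fell below it, 38 came past it, and 5, of Cltc and Snx3, which did not pass, changed sign. No paired analysis was possible because the groups share no replicate number.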
